A study of Mus musculus with 12 samples.

Results

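Aldoc, Gjb6, Glul, Aqp4 and Itih3 are genes that astrocytes of the mouse brain express strongly. They were described across hippocampus and cerebellum of Ercc1-/- mice (KO) and their Ercc1+/+ littermates (WT). Total RNA was hybridised to Affymetrix mouse genome expression arrays, on which each transcript is read by 1 or more probe sets, short groups of oligonucleotides. The 12 arrays fall into 4 groups of 3: KO hippocampus, WT hippocampus, KO cerebellum and WT cerebellum. Per the labels, the mice of all groups shared a mixed FVB and C57BL/6 background and were 21 days old, and the tissue came from 3 KO animals and 3 WT animals. The KO mice lack functional Ercc1 in every cell, so changes in any cell type of the tissue can enter the values. The sources used here do not give the sex of the mice or say whether a replicate number names the same mouse in both regions.

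The 5 genes, of 486 that could be named, are read by 7 probe sets of 45037 other than controls: 1 each for Aldoc, Gjb6 and Itih3, and a brighter and a dimmer one each for Glul and Aqp4. Names came from the authors' deposited short lists of probe sets that they selected as changed in KO, 1 list per region. Aldoc, Gjb6 and Itih3 are in both lists, Glul in the cerebellum list only and Aqp4 in the hippocampus list only. For a probe set listed in a region, its direction and p-value there are therefore not independent evidence. The values of Glul in hippocampus and of Aqp4 in cerebellum were not chosen in that way. Absence from the list of a region favours a small change there, so these values are not free of selection either. All 7 probe sets passed the filter on dim probe sets in both regions.

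Astrocytes take up glutamate and potassium released by neurons, supply neurons with fuel, and wrap blood vessels with their endfeet. Aldolase C, encoded by Aldoc, is the brain form of the glycolytic enzyme that splits fructose bisphosphate, and glutamine synthetase, encoded by Glul, turns glutamate taken up from synapses into glutamine. The connexin encoded by Gjb6 forms gap junctions that couple astrocytes into networks. Aquaporin 4, the product of Aqp4, is the water channel of the endfeet. Itih3 encodes a heavy chain of the inter-alpha-trypsin inhibitor family, secreted proteins that bind hyaluronan in the extracellular matrix.

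Ercc1, the partner of the Xpf nuclease in DNA repair, checked the labels: its intensity averaged 60.2 ± 9.0 in KO hippocampus and 195.9 ± 24.3 in WT hippocampus, and 63.6 ± 7.3 in KO cerebellum and 169.6 ± 54.1 in WT cerebellum (SD, n = 3 each). The median over all probe sets was 154.4 to 168.2 per array. Across genotype, the hippocampus arrays KO 1, KO 3 and WT 1 stood apart from KO 2, WT 2 and WT 3 on a component that held 69.7% of the variation within groups. Among the cerebellum arrays, the ratio of 3' to 5' Gapdh control signal, a sign of RNA quality, was 1.497 for KO 1 and 0.999 to 1.20 for the other 5. No such ratio was available for the hippocampus arrays, so their RNA quality was not checked in this way. Of the 15 genes fixed to mark hippocampus, Tdo2 alone could be named, so that tissue label could be checked only thinly. Intensity was summed over the 15 named astrocyte genes on each array, and these sums lay between 66756 and 67512 in KO hippocampus, against 59871 and 63184 in WT hippocampus. The corresponding sums lay between 50181 and 55922 in KO cerebellum, against 37550 and 39440 in WT cerebellum. The 15 genes include the members, and 6 are in the authors' hippocampus list and 13 in their cerebellum list. These sums are therefore no independent check.

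In both regions the KO arrays lay above all WT arrays for Aldoc, Gjb6 and Itih3, a pattern that 0.825% of 23283 probe sets tested in both showed. In hippocampus 3 of the 7 probe sets were higher in KO without overlap, where 4.48% of 27022 tested probe sets were, and 2 were lower without overlap, where 4.44% were (8.92% in either direction). In cerebellum 5 of the 7 were higher without overlap, where 5.3% were, and 0 were lower, where 4.17% were (9.47% in either direction). These shares stand beside counts that the naming of the members fixes, so nothing is read from them. No probe set passed an adjusted p of 0.05 in either region in the limma fits (0 of 27022, or 0% in each), and an unadjusted limma p under 0.05 was reached by 3.71% in hippocampus (1.53% higher and 2.18% lower in KO) and by 4.33% in cerebellum (2.82% higher and 1.51% lower), and by 5 of the 7 in each. The median log2 change of the 7 was 0.06 in hippocampus and 0.61 in cerebellum, beside 0.01 and -0.02 over all probe sets tested.

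**Figure D1:**
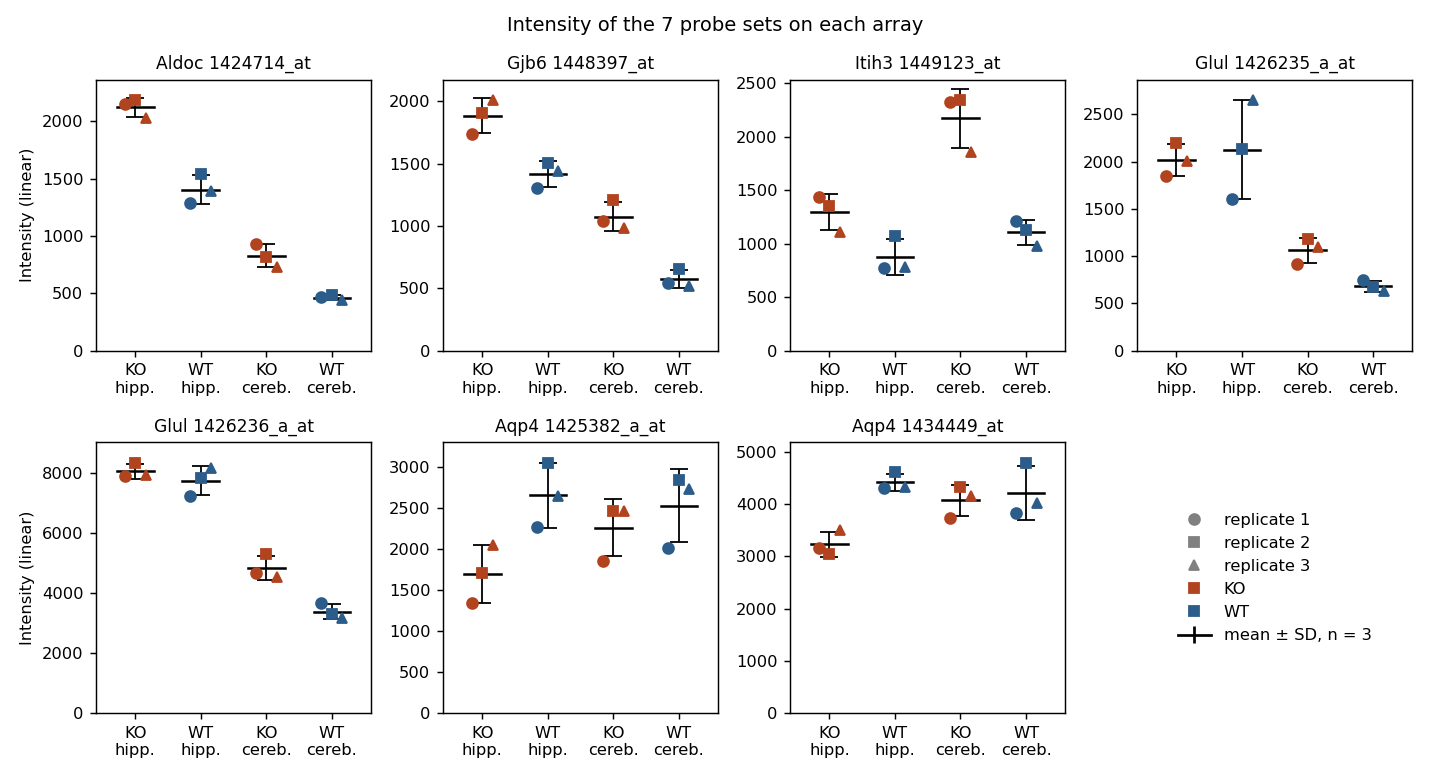
Linear intensity of each of the 7 probe sets on each of the 12 arrays, with KO left of WT in hippocampus (hipp.) and in cerebellum (cereb.). Symbols mark the replicate, horizontal lines the mean and bars the SD (n = 3). Aldoc, Gjb6 and Itih3 are higher in KO in both regions, Glul in cerebellum, and Aqp4 is lower in KO hippocampus.

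Aldoc intensity was 2151, 2187 and 2026 on the KO hippocampus arrays, against 1289.7, 1536 and 1389.9 on the WT hippocampus arrays. In cerebellum it was 934, 819 and 731 in KO, against 467, 484 and 438 in WT. The lowest KO array stood well above the highest WT array in both regions. The means were 2122 ± 85 and 1405 ± 124 in hippocampus (KO and WT; SD, n = 3 each), a ratio of 1.51, and 828 ± 102 and 463 ± 23 in cerebellum, a ratio of 1.79. On the scale log2(intensity + 32), used for all tests and slightly understating the change of dim probe sets, the difference was 0.59 ± 0.09 in hippocampus (SE, limma adjusted p = 0.622) and 0.79 ± 0.11 in cerebellum (limma adjusted p = 0.203). By p it ranked 14 among 27022 probe sets in hippocampus and 18 in cerebellum.

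Gjb6 intensity was 1736, 1909.6 and 2012 on the KO hippocampus arrays, against 1302, 1508 and 1443 on the WT ones. In cerebellum it was 1037, 1206 and 984 in KO, against 540.5, 654 and 519.6 in WT. The groups lay close together in hippocampus and far apart in cerebellum, where the ratio of the means was 1.88, against 1.33 in hippocampus. The log2 change was 0.40 ± 0.10 in hippocampus (SE, limma adjusted p = 0.9999) and 0.88 ± 0.12 in cerebellum (limma adjusted p = 0.202).

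Itih3 intensity was 1434, 1354 and 1108 on the KO hippocampus arrays, against 771, 1069 and 782 on the WT ones. The lowest KO array and the highest WT array differed by little there, so the groups barely parted. In cerebellum the intensity was 2321, 2345 and 1853 in KO, against 1211, 1130.2 and 982 in WT, a wide gap. The ratio of the means was 1.49 in hippocampus and 1.96 in cerebellum. The log2 change was 0.56 ± 0.16 in hippocampus (SE, limma adjusted p = 0.9999) and 0.95 ± 0.12 in cerebellum (limma adjusted p = 0.179), the highest of the 7 probe sets in cerebellum.

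Glul was read by a bright and a dimmer probe set, and both were higher in KO cerebellum with overlapping groups in hippocampus. On the bright one the KO cerebellum arrays had 4660 (KO 1), 5296 and 4531, against 3653, 3311 and 3184 in WT cerebellum. On the dimmer one they had 918, 1179.7 and 1092, against 743, 673 and 629 in WT. Every KO array was thus above every WT array on both probe sets. The log2 changes in cerebellum were 0.51 ± 0.09 (limma adjusted p = 0.426) and 0.61 ± 0.12 (SE, limma adjusted p = 0.432). In hippocampus the bright probe set had 7873, 8335 and 7926 in KO, against 7224, 7812 and 8160.3 in WT. The dimmer one had 1849, 2195 and 2005 in KO, within the WT range of 1601, 2129 and 2654. The log2 changes there were 0.06 (95% limma interval -0.09 to 0.21) and -0.05 (interval -0.47 to 0.36), so for the bright probe set a change in KO hippocampus between 0.94-fold and 1.15-fold is covered, and for the dimmer one between 0.72-fold and 1.29-fold. The sign of the dimmer probe set turned to 0.01 without KO 1 and to 0.12 without WT 3.

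Aqp4 was lower in KO hippocampus, and its groups overlapped in cerebellum. On the dimmer probe set the KO hippocampus arrays had 1347, 1711 and 2050.4, against 2273, 3059 and 2646 in WT hippocampus. On the brighter one they had 3156, 3041 and 3504, against 4314, 4608 and 4329.8 in WT. All KO arrays were below all WT arrays on both probe sets, at 50.7% to 77.1% of the WT mean on the dimmer and 68.8% to 79.3% on the brighter one. The log2 changes were -0.64 ± 0.17 (SE, limma adjusted p = 0.9999) and -0.45 ± 0.08 (limma adjusted p = 0.654). In cerebellum the dimmer probe set had 1861, 2469 and 2468 in KO, against 2021, 2843 and 2731 in WT, and the brighter one had 3739, 4324 and 4145 in KO, against 3830.1, 4794 and 4019 in WT. These groups overlapped on both. The log2 changes there were -0.15 (95% limma interval -0.53 to 0.22) and -0.05 (interval -0.29 to 0.19). The array of KO 1, the one with the high Gapdh ratio, was the lowest KO cerebellum array on both probe sets. Without it the change was -0.02 on the dimmer and 0.01 on the brighter one. Without WT 1 the change was -0.31 and -0.11, and without WT 2 it was -0.06 and 0.050. With any single array left out, the dimmer probe set ran from -0.31 to -0.02 and kept its sign.

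**Figure D2:**
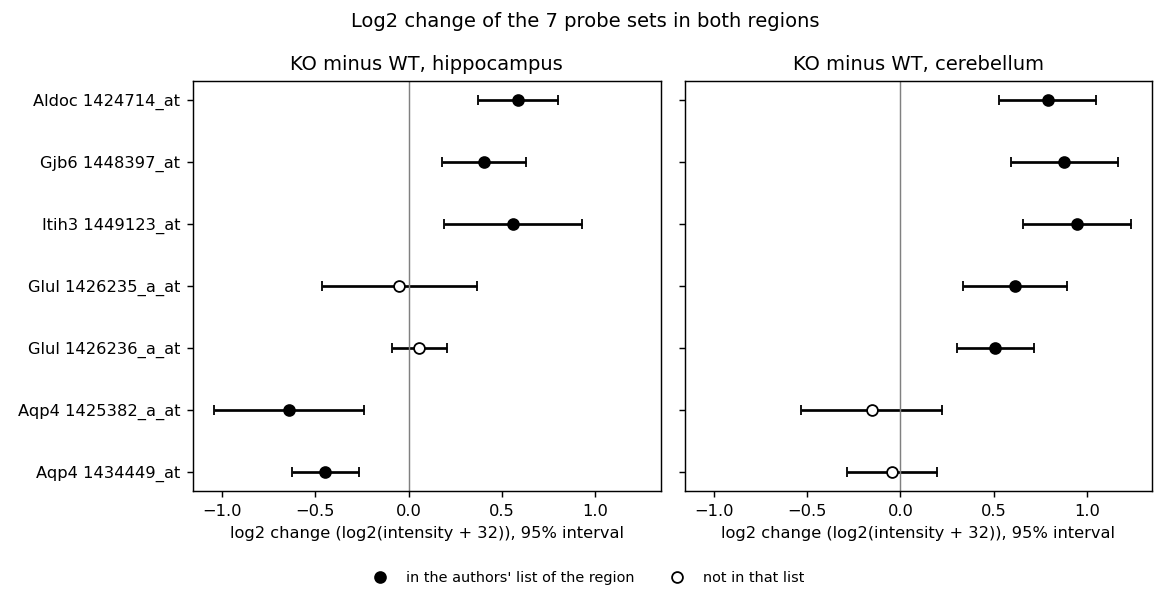
Log2 change, KO minus WT, of each probe set with its 95% limma interval, in hippocampus (left) and cerebellum (right), on the scale log2(intensity + 32). Filled points are probe sets in the authors' list of that region and open points are not. The open points, Glul in hippocampus and Aqp4 in cerebellum, lie near 0, which absence from the list favours. Their intervals run from -0.47 to 0.36 at the widest for Glul and from -0.53 to 0.22 for Aqp4.

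For single probe sets the exact permutation p (two-sided) was 0.1 wherever the groups did not overlap, the lowest value possible with 3 arrays a group. It was 0.9 and 0.4 for the dimmer and the bright Glul probe set in hippocampus, and 0.5 and 0.8 for the dimmer and the brighter Aqp4 probe set in cerebellum. With the spread estimated from both regions together in 1 limma fit of the 12 arrays, the cerebellum comparison differed. There 34 of the 27022 probe sets tested passed, and 4 of the 7 members did. These were Aldoc and Gjb6 (limma adjusted p = 0.0137 each), the bright Glul probe set (limma adjusted p = 0.0369) and Itih3 (limma adjusted p = 0.0407). All 4 are from the authors' list, so nothing is read from their count. In hippocampus 6 of all probe sets passed in that fit, and none of the 7. Within the sides of the hippocampus arrays (KO 1 and KO 3 minus WT 1, then KO 2 minus WT 2 and WT 3), the log2 difference was 0.68 and 0.57 for Aldoc, 0.51 and 0.37 for Gjb6, 0.69 and 0.55 for Itih3, -0.44 and -0.72 for the dimmer Aqp4 probe set, and -0.37 and -0.55 for the brighter one. It was 0.13 and 0.06 for the bright Glul probe set, and 0.26 and -0.11 for the dimmer one, of opposite sign. The sides were drawn from these same arrays, and each has 1 array alone in a group. Where the groups did not overlap, the sign within each side was fixed beforehand, so nothing is read from it.

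In the authors' deposited table for hippocampus, the signed fold change was 1.51 for Aldoc, 1.48 for Itih3, 1.34 for Gjb6, -1.56 for the dimmer Aqp4 probe set and -1.37 for the brighter one, where a negative sign means lower in KO. The authors' deposited table for cerebellum gives 1.96 for Itih3, 1.88 for Gjb6, 1.79 for Aldoc, 1.56 for the dimmer Glul probe set and 1.43 for the bright one.

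Within single hippocampus arrays, Aldoc, Gjb6, Itih3 and the bright Glul probe set lay apart from Aqp4 in KO, and the dimmer Glul probe set did not. Each array's log2 value was set against the WT mean of its region, and the Aqp4 deviation was taken from that of another gene. Aldoc minus the brighter Aqp4 probe set lay between 0.85 and 1.16 in the 3 KO hippocampus arrays and between -0.08 and 0.07 in the 3 WT ones. For Gjb6 the difference lay between 0.77 and 0.96 in KO and between -0.08 and 0.06 in WT, and for Itih3 between 0.68 and 1.19 in KO and between -0.13 and 0.24 in WT. For the bright Glul probe set it lay between 0.37 and 0.64 in KO and between -0.06 and 0.11 in WT. For the dimmer Glul probe set the ranges overlapped, at 0.28 to 0.61 in KO and -0.34 to 0.37 in WT. How the arrays were scaled is not known here, and the part of that step in these values was not tested. The values describe unequal differences between transcripts, on genes chosen from these arrays.

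**Figure D3:**
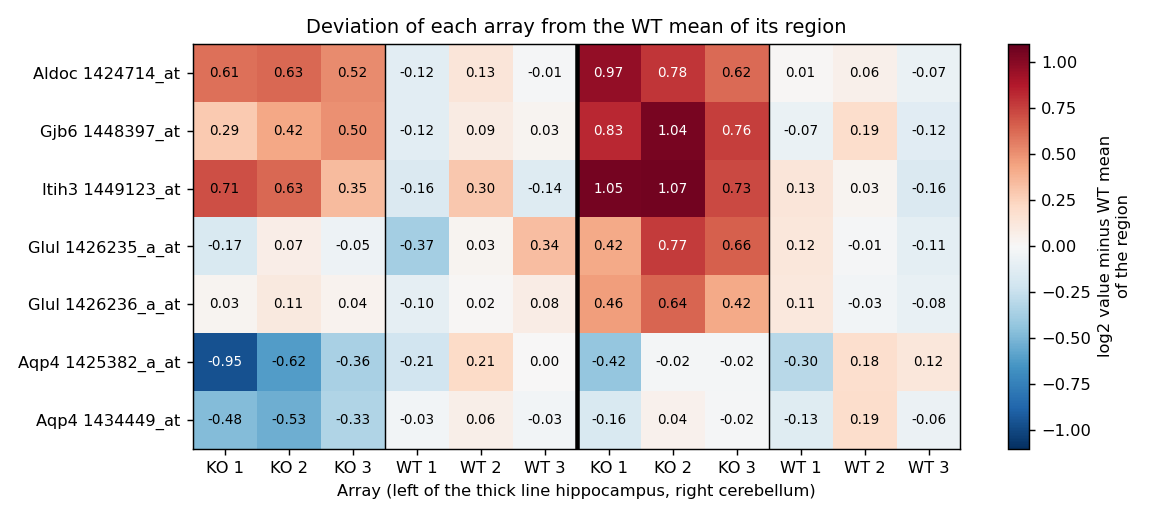
Deviation of each array's log2 value from the WT mean of its region for the 7 probe sets (rows) on the 12 arrays (columns), with KO left of WT in each region. Red is above and blue below the WT mean. Aldoc, Gjb6 and Itih3 are above 0 on all 6 KO arrays, the bright Glul probe set is at 0.42 to 0.64 on the KO cerebellum arrays and at 0.03 to 0.11 on the KO hippocampus arrays, and both Aqp4 probe sets are below 0 on the 3 KO hippocampus arrays.

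The spread between arrays of a group differed among the probe sets. The coefficient of variation lay between 3.14% and 8.48% for the bright Glul probe set, between 4.0% and 12.3% for Aldoc and between 7.4% and 12.6% for Gjb6. It reached 24.7% for the dimmer Glul probe set in WT hippocampus and 20.7% for the dimmer Aqp4 probe set in KO hippocampus. The members did not share the order of arrays: in KO cerebellum Aldoc was highest in KO 1, and Gjb6, Itih3 and both Glul probe sets in KO 2.

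The regional tables were deposited separately, so levels are set side by side without a test. Aldoc and Gjb6 had the same order: KO hippocampus, WT hippocampus, KO cerebellum and WT cerebellum, with no overlap of arrays between neighbours. The bright Glul probe set averaged 8045 ± 253 in KO hippocampus and 7732 ± 473 in WT hippocampus, which overlapped, then 4829 ± 410 in KO cerebellum and 3383 ± 243 in WT cerebellum, each step beyond the spread (SD, n = 3 each). On that probe set KO cerebellum stayed below WT hippocampus. The dimmer Glul probe set averaged 2016 ± 174 in KO hippocampus and 2128 ± 526 in WT hippocampus, which overlapped, above both cerebellum groups. Itih3 had its highest level in KO cerebellum, 2173 ± 278, followed by KO hippocampus with 1299 ± 169, WT cerebellum with 1108 ± 116 and WT hippocampus with 874 ± 169, of which each neighbouring pair among the last 3 overlapped. For the brighter Aqp4 probe set the order was WT hippocampus, WT cerebellum, KO cerebellum and KO hippocampus, and KO hippocampus alone stood apart from its neighbour. The dimmer one had the same order, with overlap at every step.

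The KO effect in hippocampus was compared with that in cerebellum in 1 limma fit over 23283 probe sets, with the arrays taken as independent. Of all tested, 1 passed (0.00429%), and of the 7 members 0 did; an unadjusted limma p under 0.05 was reached by 3.14% of all and by 4 of the 7. The difference, hippocampus minus cerebellum, was below 0 for all 7, which the choice of the members from the lists of the regions bears on, with a median of -0.45 beside 0.01 over all probe sets tested. It was -0.45 ± 0.11 for the bright Glul probe set (SE, limma adjusted p = 0.927) and -0.66 ± 0.23 for the dimmer one. For Gjb6 it was -0.47 ± 0.16, for Itih3 -0.39 ± 0.21 and for Aldoc -0.20 ± 0.14. For Aqp4, which was lower in KO hippocampus, it was -0.49 ± 0.26 on the dimmer and -0.40 ± 0.13 on the brighter probe set (SE, limma adjusted p = 0.9999 for these and the preceding 4). A difference between the regions was therefore not shown for any of the 5 genes. The 95% interval for Aldoc, -0.51 to 0.10, holds 0, and that for the bright Glul probe set, -0.69 to -0.21, does not before adjustment. The regions came from the same few animals, and which arrays share a mouse is not known. With same-numbered arrays taken as 1 mouse, the unadjusted limma p fell from 0.082 to 0.0038 for the dimmer Aqp4 probe set. For Itih3 it fell from 0.093 to 0.040, and for Gjb6 and both Glul probe sets it rose. None of the 7 passed in that fit (limma adjusted p = 0.9997).

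Sequence upstream of the genes that were higher in KO was taken from RefSeq, build GRCm38.p6, to show the windows that the motif counts refer to. The 250 bases before a transcript start are printed 5′ to 3′ on the strand of the gene, and capitals mark motif matches on either strand. RefSeq entries matched 4 of the 5 genes, with a pair of starts for Aldoc and, for Itih3, a start inside the annotated gene, and not Aqp4.
Aldoc, chr11:78322823-78323072, plus strand: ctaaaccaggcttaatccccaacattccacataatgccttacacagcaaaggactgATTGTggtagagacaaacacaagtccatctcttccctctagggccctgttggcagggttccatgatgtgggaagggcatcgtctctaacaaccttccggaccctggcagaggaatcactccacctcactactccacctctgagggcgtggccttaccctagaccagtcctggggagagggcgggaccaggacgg
Aldoc, second start, chr11:78323948-78324197, plus strand: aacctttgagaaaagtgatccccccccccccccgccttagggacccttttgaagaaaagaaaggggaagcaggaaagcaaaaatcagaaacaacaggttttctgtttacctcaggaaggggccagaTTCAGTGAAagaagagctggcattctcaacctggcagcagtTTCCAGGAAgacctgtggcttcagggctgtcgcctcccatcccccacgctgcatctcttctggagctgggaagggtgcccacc
Gjb6, chr14:57133612-57133861, minus strand: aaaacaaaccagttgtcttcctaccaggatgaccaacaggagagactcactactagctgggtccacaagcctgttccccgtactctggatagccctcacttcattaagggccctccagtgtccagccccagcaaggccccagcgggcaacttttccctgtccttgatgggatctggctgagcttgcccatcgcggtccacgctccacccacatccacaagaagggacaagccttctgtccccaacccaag
Itih3, chr14:30923588-30923837, minus strand: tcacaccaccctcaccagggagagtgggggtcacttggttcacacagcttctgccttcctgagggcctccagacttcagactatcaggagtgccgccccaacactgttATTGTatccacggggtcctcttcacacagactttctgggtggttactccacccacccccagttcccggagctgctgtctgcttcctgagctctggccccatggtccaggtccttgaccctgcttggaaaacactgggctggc
Glul, chr1:153899679-153899928, plus strand: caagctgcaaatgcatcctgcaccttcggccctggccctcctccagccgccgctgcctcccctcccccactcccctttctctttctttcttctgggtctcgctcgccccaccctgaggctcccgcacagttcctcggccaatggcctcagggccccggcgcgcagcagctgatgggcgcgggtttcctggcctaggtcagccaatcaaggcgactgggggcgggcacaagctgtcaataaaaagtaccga
The letters searched were TTCNNNGAA (STAT factors), the palindromic NFI site, ACGTG (the core of the hypoxia response element), TGTTCT (a glucocorticoid receptor half-site) and ACAAT (Sox factors). The first window of Aldoc and that of Itih3 held ACAAT once each, at positions -194 to -190 and -142 to -138 from the start, and 27.7% of 32851 promoter windows of the same length hold it. The second window of Aldoc held TTCNNNGAA at positions -124 to -116 and -83 to -75 from its start, against 7.02% of all windows with at least 1 match. The windows of Gjb6 and Glul held none of the 5. The NFI site occurs in 0.0365%, ACGTG in 16.6% and TGTTCT in 16.1% of all windows, and in none of these 5.

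Other astrocyte genes were taken from a list of 50, of which 15 could be named and tested, these 5 included. Of the 10 others, 9 were higher in KO cerebellum without overlap and 0 lower (5.3% and 4.17% of all probe sets tested), with 0 past the threshold, and the median log2 change was 0.51. In KO hippocampus 4 of the 10 were higher without overlap and 1 lower (4.48% and 4.44% of all), again with 0 past the threshold, and the median was 0.12. In cerebellum the values were 1.16 ± 0.13 for Gfap, the intermediate filament of astrocytes, 0.67 ± 0.07 for the protease inhibitor gene Cst3, 0.64 ± 0.10 for the metallothionein gene Mt1, and 0.77 ± 0.14 for Slc6a11, a GABA transporter (SE, n = 3 per group). In hippocampus the values were 0.36 ± 0.05 for Fam107a, 0.20 ± 0.06 for the metallothionein gene Mt2, 0.20 ± 0.06 for Mt1, and -0.28 ± 0.08 for Slc4a4, the sodium bicarbonate cotransporter. All of the 10 but Slc4a4 are in the authors' cerebellum list. The 8 others outside the hippocampus list had a median of 0.12 in hippocampus, with 7 above 0 and 3 higher without overlap. Over all probe sets tested there, 52.6% were above 0 and 4.48% were higher without overlap. On the probe sets used here, these 8 genes were named through the cerebellum list alone, where all 8 are higher in KO. The regions came from the same few animals, so nothing is read from the counts of the 8 or of the 10.

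**Figure D4:**
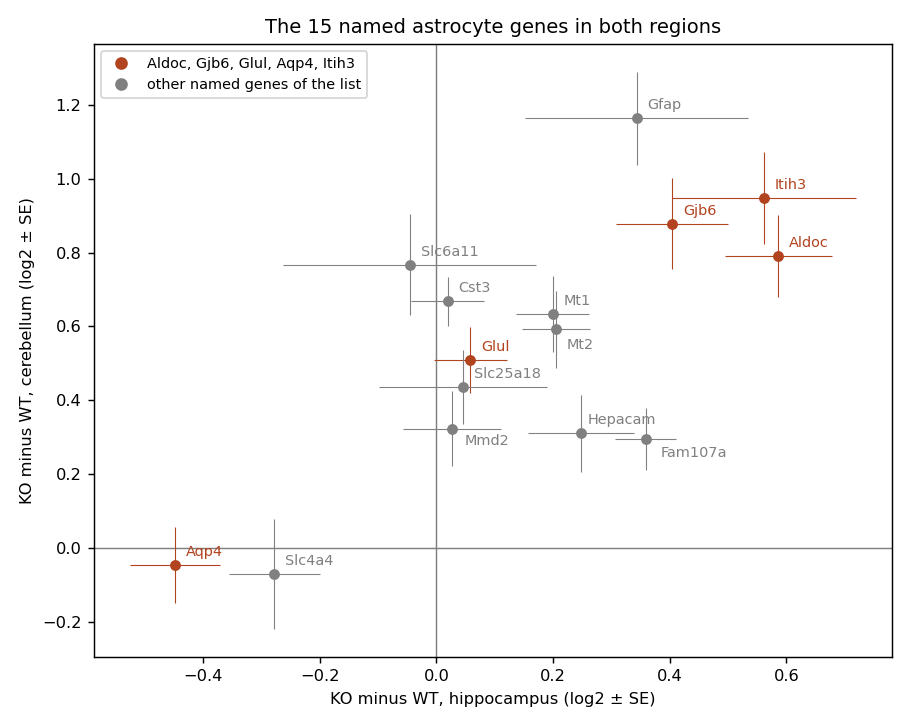
Log2 change, KO minus WT, in hippocampus (horizontal) and cerebellum (vertical) for the 15 named genes of the astrocyte list, with SE bars (n = 3 per group). Each gene is shown by its brightest probe set. Aldoc, Gjb6 and Itih3 lie to the upper right, Glul near 0 in hippocampus (0.06) and at 0.51 in cerebellum, and Aqp4 with Slc4a4 at the lower left.

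Related genes of the same families could be named in small numbers. Of the connexin and pannexin list, 2 of 12 could be named: Gjb6 and Gjd2, the connexin of electrical synapses between neurons, which had -0.12 ± 0.11 in hippocampus with overlapping groups and 0.50 ± 0.10 in cerebellum (SE, n = 3 per group). Itih5, of the family of Itih3, had 0.27 ± 0.12 in hippocampus with overlapping groups and 0.51 ± 0.11 in cerebellum without overlap. Tnfaip6, whose product transfers such heavy chains to hyaluronan, had 0.03 ± 0.20 and 0.51 ± 0.16. Of glycolysis, 2 of 22 genes could be named: Aldoc and the hexokinase gene Hk2, with 0.36 ± 0.09 in hippocampus and -0.08 ± 0.13 in cerebellum, where its groups overlapped. Of the glutamate and glutamine list (14 genes) and of the endfoot list (13 genes), Glul and Aqp4 alone could be named. Of genes fixed as marks of reactive astrocytes, 4 of 39 could be named. Of these, 2 were higher without overlap in hippocampus (C4b and H2-K1) and 3 in cerebellum (Gfap, Tm4sf1 and H2-K1). Over all probe sets tested, 4.48% were in hippocampus and 5.3% in cerebellum. Each of these genes is in the authors' list of that region, so nothing is read from the counts. The complement gene C4b had 0.66 ± 0.10 in hippocampus and 0.27 ± 0.14 in cerebellum, where its groups overlapped. The histocompatibility gene H2-K1, on a probe set of a kind that can bind related transcripts, had 0.32 ± 0.11 and 0.42 ± 0.12. In hippocampus, where their groups overlapped, Gfap had 0.34 ± 0.19 and Tm4sf1 0.04 ± 0.15, and Tm4sf1 had 0.27 ± 0.10 in cerebellum. Of 13 genes fixed for Bergmann glia, a type of astrocyte of the cerebellar cortex, 3 could be named. They were Itih3, Etnppl with 1.77 ± 0.30 in hippocampus and 1.55 ± 0.21 in cerebellum, and the growth factor gene Gdf10 with 0.34 ± 0.14 and 0.52 ± 0.11. All 3 were above 0 in hippocampus too, so they are not read as particular to Bergmann glia. None of these related genes passed the threshold. Hk2 and Etnppl are in the authors' hippocampus list, and Gjd2, Itih5, Tnfaip6 and Gdf10 in their cerebellum list, on the probe sets used here.

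Genes of other cell types differed beside the astrocyte genes, and their part in the values above was not tested. Of 20 microglia genes 9 could be named; they were above 0 in 8 cases in KO hippocampus and in 9 in KO cerebellum, where 52.6% and 45.03% of all probe sets tested were, with medians of 0.24 and 0.87. Their summed intensity lay between 13176 and 13622 in KO hippocampus, against 11015 and 12226 in WT hippocampus, and between 4343 and 4701 in KO cerebellum, against 2197 and 2760 in WT cerebellum (lowest and highest array). Of 18 oligodendrocyte genes 5 could be named; all 5 were below 0 in KO hippocampus, as Aqp4 was, with a median of -0.36, and above 0 in KO cerebellum with a median of 0.26. Their summed intensity lay between 12264 and 12933 in KO hippocampus, against 13195 and 18402 in WT hippocampus, and between 11613 and 13833 in KO cerebellum, against 8917 and 10050.1 in WT cerebellum. The 2 of 11 fibroblast genes that could be named had a median of -0.02 in KO hippocampus and 0.52 in KO cerebellum, and Alas2 of the red blood cell list had -0.64 and -0.54. The 9 microglia genes, 3 of the 5 oligodendrocyte genes, the 2 fibroblast genes and Alas2 are in the authors' cerebellum list. In their hippocampus list are 1 of the microglia and 2 of the oligodendrocyte genes. That selection bears on the directions, medians and sums above, so nothing is read from their share beside all probe sets. No gene of the neuron, endothelial or choroid plexus lists could be named. In RNA of whole tissue, fewer cells of a type and less RNA per cell cannot be told apart.

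The profile of each member over the 12 arrays, as deviations from the WT mean of the region, was compared with those of 497 or 498 named probe sets of other genes by root mean square difference. Nearest to Aldoc were Minar2 (0.11), Itih3 (0.13) and Gjb6 (0.15), all on the log2 scale, so 2 of its 3 nearest profiles were other members. Nearest to Itih3 were Minar2 (0.13), Aldoc (0.13) and the potassium channel gene Kcnk9 (0.17), and nearest to Gjb6 were Aldoc (0.15), the Fc receptor gene Fcgr3 (0.16) and Minar2 (0.16). Nearest to the bright Glul probe set were the cysteine dioxygenase gene Cdo1 (0.085), the aminotransferase gene Bcat1 (0.087) and Cst3 (0.092), and nearest to the dimmer one were Cst3 (0.13), the mitochondrial carrier gene Slc25a18 (0.14) and Nsg2 (0.14). The dimmer Aqp4 probe set lay nearest to 3 enzymes of cholesterol synthesis, Msmo1 (0.12), Nsdhl (0.16) and Cyp51 (0.17), and the brighter one to Arf3 (0.065), Mgat5 (0.078) and the serine palmitoyltransferase gene Sptlc2 (0.10). The pair of Aqp4 probe sets differed from each other by 0.19, and the pair of Glul probe sets by 0.15. Aldoc and the brighter Aqp4 probe set differed by 0.68. The search covered only genes that the authors had listed as changed, and values of a probe set share the same arrays, so likeness is a description of these arrays.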

How the data were processed

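Linear intensity values per probe set were deposited by the authors, who made them with the dChip software, per the labels and the series' design text; no source used here gives its version, its background step or how arrays were scaled. The short lists that the authors deposited hold a signed fold score and an unadjusted p-value per selected probe set, made by the authors with dChip, per the file headers. In value, the matrix equals the regional tables (largest difference 0), no sample column was unused (0), and no arrays were identical.

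The lists name 610 probe sets, 538 with 1 current symbol after matching to RefSeq GRCm38.p6, used for names and promoters. Values were taken as log2(intensity + 32). The 64 control probe sets were dropped, and the filter on dim probe sets kept those with a mean above the 40th percentile of a region. KO and WT were compared with limma 3.58.1 in R 4.3.3 (intensity trend, Benjamini-Hochberg at 0.05), per region and, for the regional difference, over 12 arrays; the interval is at 95%. The number of arrays limits the precision, and p-values measure only the spread between these arrays. The steps were tested on simulated data. A gene of a list stands for its brightest probe set that has a name. Python 3.11.15, pandas 2.3.3, NumPy 2.4.6 and matplotlib 3.10.9 were used. The members and lists were chosen with earlier results of these data known. Named were all members, the measured genes of each list (4 at most per region, those with the smallest p, except where a count is small), and the 3 nearest profiles of each member. Alternatives changed the pseudocount, filter, normalization, trend, samples, pairing and arrays left out. Replicate numbers were not taken as pairs in the main fits. Deviations of same-numbered KO and WT arrays correlated at 0.58, 0.25 and -0.44 in hippocampus and at 0.04, 0.28 and -0.18 in cerebellum. Those of same-numbered hippocampus and cerebellum arrays correlated at 0.46, 0.45 and -0.22 in KO and at -0.03, 0.06 and -0.12 in WT. A marker check of the cerebellum label is not reported here.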

Additional observations from a re-analysis of the deposited data

Results flagged for a closer look

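The summed intensity of the 5 named oligodendrocyte genes was below the WT mean on every KO hippocampus array and above it on every KO cerebellum array, with mean log2 differences of -0.35 and 0.41, or -0.76 for hippocampus minus cerebellum. The difference was not tested, and 2 of the 5 genes are in the authors' hippocampus list and 3 in their cerebellum list. None of Aldoc, Gjb6, Glul, Aqp4 and Itih3, nor of the other named astrocyte genes, lay on opposite sides in this way on every KO array.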

How the results depend on the processing

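The 21 changes of the 7 probe sets (2 regions and their difference) were recomputed under 336 alternatives in all. Of these, 328 kept direction and side of the threshold, 4 passed it and 4 turned sign. Alternatives that changed only the filter, the trend, the blocking or the pooling of regions cannot move a log2 change. None of the 7 passed in the main fits, so no call could be lost. The tally is therefore no measure of stability. Those that passed came from 1 fit over all 12 arrays in cerebellum (log2 change 0.79 for Aldoc, 0.88 for Gjb6, 0.51 for the bright Glul probe set and 0.95 for Itih3), where the count of all probe sets past the threshold was 34, against 6 in hippocampus and 0 in the fits by region. With arrays left out, the dimmer Glul probe set in hippocampus ran between -0.24 and 0.12 (0.0094 without KO 1, 0.12 without WT 3). The brighter Aqp4 probe set in cerebellum ran between -0.11 and 0.050 (0.013 without KO 1, 0.050 without WT 2). The cause was not tested. The counts of all probe sets past the threshold then ran from 0 to 5 in hippocampus (5 without WT 2), from 0 to 2 in cerebellum (2 without KO 1 or WT 2, 1 without WT 1) and from 0 to 2 for the regional difference. In cerebellum 1 probe set passed with the filter at the 60th percentile. The 1 call of the regional difference fell to 0 with the largest pseudocount tried, without a filter, without the intensity trend and with mice as a replicate block. With the replicate number as a block, the counts were 0, 0 and 1, and the block changed no call. Such a block cannot move a log2 change in this balanced layout, so that of Aldoc in cerebellum was again 0.79. Its limma adjusted p was 0.449 with the block, and ran from 0.0137 to 0.9999 over all its alternatives. By Pearson correlation in place of the root mean square difference, between 0 and 2 of the 3 nearest profiles of a member were shared. The number of arrays limits what could be called.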
